A study of Mus musculus with 8 samples.

Results

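Classical inflammatory monocytes of the mouse liver were described across control mice and mice of 2 nonalcoholic steatohepatitis (NASH) models. Members were chosen by the UMIs (unique molecular identifiers, each counting 1 captured mRNA molecule) of marker genes in each cell. A cell had to show over 500 genes, have less than 25% of its UMIs from mitochondrial genes, and hold at least 3 UMIs of Chil3, F13a1 and Vcan together and at least 1 of Ccr2. No UMI of Trem2 or Gpnmb (macrophages), Cd300e or Treml4 (patrolling monocytes), Siglech (plasmacytoid dendritic cells), Top2a (dividing cells), Cd3e (T cells) or Cd79a (B cells) was allowed, and at most 2 of Cxcl9 and Cxcl10. This rule took 1474 of 80474 kept cells, or 1.83%. The 8 libraries were 1 liver each of wild-type C57BL/6 mice, 2 controls on a normal diet and drinking water, 3 mice on a high-fat diet, fructose solution and intraperitoneal CCl4 (HFD+F+CCl4) and 3 on a western diet, fructose solution and intraperitoneal CCl4 (WD+F+CCl4), all taken after 16 weeks. Livers were perfused through the heart, digested with collagenase IV and papain, and freed of red cells and dead cells before capture. The sources used here give neither sex nor age.

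Classical monocytes are made in the bone marrow, carry Ly6C and the chemokine receptor CCR2, and follow CCL2 into injured tissue. In the liver they can become macrophages, and in steatohepatitis some of these take up lipid and express Trem2, Gpnmb, Cd9 and Spp1. Patrolling monocytes, which carry little Ly6C, stay along the vessel wall and depend on Nr4a1. The transcription factors PU.1 (Spi1) and C/EBP shape the genes of the myeloid lineage, and C/EBPβ (Cebpb) acts in the response to inflammation.

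The stretch before the start of transcription is shown for a gene of the gate (F13a1), the marker of the class that the gate did not use (Ly6c2), and the acute-phase genes Saa3 and Lcn2, whose levels in the classical monocytes differed between NASH and control mice. Each is 250 bases, read 5′ to 3′ on the strand of the gene, which is the minus strand for all 4, from RefSeq on GRCm38.p6. Capitals mark the letters GAGGAA, the core that PU.1 binds, searched on both strands, in F13a1 and Ly6c2, and TTGCNNAA or TTNNGCAA, a form of the C/EBP site, in Saa3 and Lcn2.
F13a1: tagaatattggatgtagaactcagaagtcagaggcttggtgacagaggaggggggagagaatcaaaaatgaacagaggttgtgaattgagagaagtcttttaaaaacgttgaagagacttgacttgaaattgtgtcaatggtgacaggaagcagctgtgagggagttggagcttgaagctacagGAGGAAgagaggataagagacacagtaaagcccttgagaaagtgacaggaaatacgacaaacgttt
Ly6c2: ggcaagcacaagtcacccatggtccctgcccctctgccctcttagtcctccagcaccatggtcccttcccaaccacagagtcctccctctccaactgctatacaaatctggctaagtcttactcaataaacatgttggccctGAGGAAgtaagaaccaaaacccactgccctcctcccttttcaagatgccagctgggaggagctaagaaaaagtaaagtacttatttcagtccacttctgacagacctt
Saa3: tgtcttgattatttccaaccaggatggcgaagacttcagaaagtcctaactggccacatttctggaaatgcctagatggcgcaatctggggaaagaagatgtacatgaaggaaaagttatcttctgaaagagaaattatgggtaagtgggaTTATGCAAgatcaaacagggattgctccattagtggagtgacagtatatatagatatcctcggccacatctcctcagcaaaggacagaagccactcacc
Lcn2: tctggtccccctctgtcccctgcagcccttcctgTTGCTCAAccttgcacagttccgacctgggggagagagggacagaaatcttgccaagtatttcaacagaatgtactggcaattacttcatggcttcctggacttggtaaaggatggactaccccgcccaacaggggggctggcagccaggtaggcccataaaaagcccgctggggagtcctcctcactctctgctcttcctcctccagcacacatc
The F13a1 stretch lies at chr13:37050245-37050494 and the capitals 66 to 61 bases before the start. The Ly6c2 stretch lies at chr15:75111972-75112221, with the capitals 108 to 103 bases before the start. The Saa3 stretch (chr7:46715677-46715926) has TTATGCAA 99 to 92 bases before the start, and the Lcn2 stretch (chr2:32387740-32387989) has TTGCTCAA 216 to 209 bases before it. The PU.1 letters stand in the 250 bases before the start in 7639 of 32851 RefSeq promoters (23.3%). The C/EBP letters stand there in 3142 (9.56%), so each match is a description of the sequence and not a binding site. RefSeq lists 2 starts for F13a1 and for Ly6c2, of which the first in the table was used.

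The gate was met in different ways. Chil3, a chitinase-like lectin, gave the 3 UMIs by itself in 81.5% of the classical monocytes, F13a1, the A chain of coagulation factor XIII, in 49.7% and Vcan, the proteoglycan versican, in 19.5%. Of the 1474 cells, 111 stood at the limit with 3 UMIs and 193 other cells stood just below it with 2. Ly6c2, which the gate did not read, had a UMI in 74.8% of all classical monocytes, in 53.2% of those at the limit and in 43.0% of those just below it. MHC class II followed the opposite order, with H2-Ab1 at 1158 CPM (the usual depth-scaled count of UMIs, from the UMIs of the cells summed) in all members, 3249 CPM at the limit and 5554 CPM just below it. These cells carried high levels of other genes of the class, since Lyz2 (lysozyme) ranged from 12274 CPM to 31782 CPM over the 8 mice and Plac8 from 2573 CPM to 4705 CPM.

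Libraries differed in depth, which limits what can be read from the controls. The class held 203 and 39 cells in control mice 1 and 2, 42, 78 and 134 cells in HFD+F+CCl4 mice 1 to 3, and 340, 428 and 210 cells in WD+F+CCl4 mice 1 to 3. Their summed UMIs were 920340 and 44068 in the controls, 169220, 394348 and 774976 for HFD+F+CCl4 and 2008428, 2023405 and 1103328 for WD+F+CCl4. A median member held 941 UMIs in control 2 and between 3678 and 5826.5 in the other 7 mice. With 3 counts as the limit of a count of 0, a gene without UMIs could reach 68.1 CPM in control 2, 3.26 CPM in control 1 and 3.11 CPM in both controls together, and such limits and the intervals below cover counting error only. No barcode was a member in more than 1 library, and 23 of the 1474 member barcodes (1.56%) were also a kept cell of another library. Of the 79739 distinct barcodes of kept cells, 732 (0.918%) stood in more than 1 library. This second share counts a shared barcode once and not once for each cell, so the 2 shares cannot be compared.

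Markers of other cell types stood high in the classical monocytes of some libraries. The 5 red blood cell genes summed to 12140 CPM in control 2 and 4886 CPM in WD+F+CCl4 mouse 3, against 0 to 541 CPM in the other 6 mice, with Hbb-bs the most abundant. The 7 stellate cell genes reached 2441 CPM in HFD+F+CCl4 mouse 1, with Col3a1 the most abundant, and at most 22.7 CPM elsewhere. The 12 hepatocyte genes summed to 2738 and 1906 CPM in the controls and to 222 to 1141 CPM in NASH mice, with Alb the most abundant in the controls. The 10 neutrophil genes summed to 661 and 567 CPM in the controls, 290, 1301 and 8423 CPM in the HFD+F+CCl4 mice and 11802, 6625 and 3020 CPM in the WD+F+CCl4 mice. In 122 members S100a8 and S100a9 gave 20 or more UMIs, and 84 of them were in WD+F+CCl4 mouse 1, where they made 24.7% of its classical monocytes. Those 84 cells had Csf1r at 517 CPM, against 936 CPM in the other 256 members of that mouse, and Ly6c2 at 1777 CPM against 1361 CPM, so they carried monocyte and neutrophil genes together. Ranking by Scrublet placed 19.0% of the 84 cells and 3.91% of the 256 among the doublets. Of all members, 91 ranked as doublets, and leaving them out is among the alternatives tried.

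The classical monocytes did not make up a larger share of the liver cells in all NASH mice, and within NASH they were more frequent on the western diet. Their share of kept cells was 1.88% in control 1 (95% Clopper-Pearson interval 1.63% to 2.16%) and 0.936% in control 2 (0.666% to 1.28%). It was 0.376%, 0.771% and 1.26% in HFD+F+CCl4 mice 1 to 3 and 2.83%, 4.35% and 1.79% in WD+F+CCl4 mice 1 to 3. The values of the controls thus lay among those of the NASH mice. NASH mice averaged 1.90% ± 1.48 (SD, n = 6) and controls 1.41% ± 0.669 (SD, n = 2), so that NASH was higher by 0.487 percentage points (exact two-sided permutation test, p = 0.75, where 0.0357 is the smallest p possible). This direction was not stable, since the difference was -0.00275 without WD+F+CCl4 mouse 2 and 0.0144 without control 2. All 3 WD+F+CCl4 mice lay above all 3 HFD+F+CCl4 mice, with means of 2.99% ± 1.28 and 0.801% ± 0.442 (SD, n = 3 each). The difference was 2.19 percentage points (exact two-sided permutation test, p = 0.1, the smallest p that 3 against 3 mice can give). The shares moved when the cells were thinned, which also leaves out cells of fewer UMIs and lowers the counts of the genes that bar a cell, and these parts were not tested apart. When every kept cell was thinned to 1000 UMIs, the shares were 1.31% and 0.788% in the controls, 0.389%, 1.06% and 1.11% in the HFD+F+CCl4 mice and 6.81%, 6.98% and 2.77% for WD+F+CCl4, with the same order of the 2 models.

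**Figure D1:**
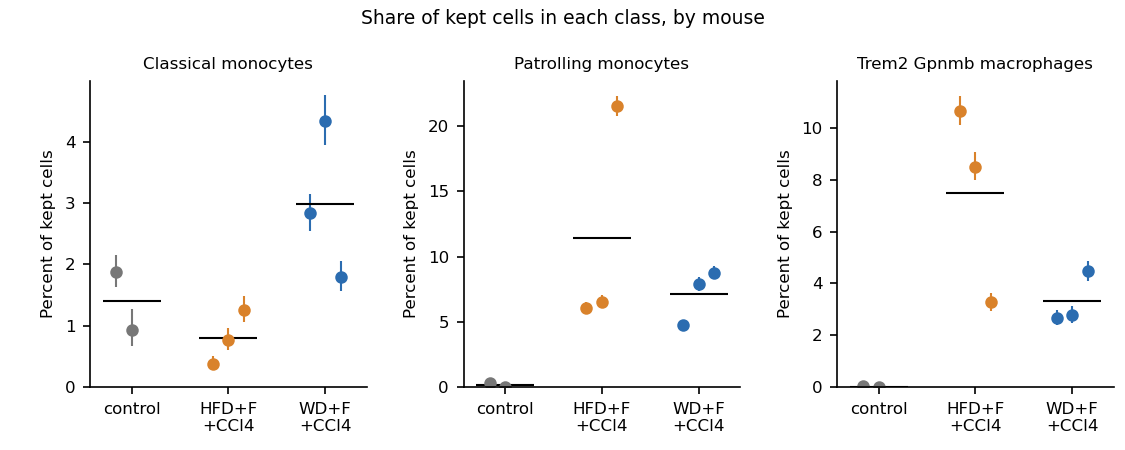
Share of kept cells (percent, vertical axis) in each of the 8 mice for the classical monocytes, the patrolling monocytes and the Trem2 Gpnmb macrophages, with 1 point a mouse, a 95% Clopper-Pearson interval as a vertical line and a bar at the mean of each group. The classical monocytes of the 3 WD+F+CCl4 mice lie between 1.79% and 4.35%, above the HFD+F+CCl4 mice at 0.376% to 1.26%, and the controls at 0.936% and 1.88% overlap both.

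The balance between classical monocytes and the neighbouring classes is described here, and the balance itself was not tested. Patrolling monocytes, taken with at least 2 UMIs of Cd300e and Treml4, numbered 31 and 0 cells in the controls, or 0.287% of kept cells in control 1, and 0 of 4168 cells in control 2, which allows a share of up to 0.072%. They made 9.27% ± 6.18 (SD, n = 6) of kept cells in NASH mice (exact two-sided permutation test of the means against control, p = 0.143). All NASH mice, at 4.76% to 21.6%, lay above both controls. Trem2 Gpnmb macrophages made 5.40% ± 3.38 (SD, n = 6) in NASH mice and a mean of 0.0139% in controls (p = 0.0714, same exact test). Here, too, the NASH mice, at 2.67% to 10.7%, lay above both controls. For each patrolling monocyte, control 1 had 6.55 classical monocytes, the HFD+F+CCl4 mice 0.0619, 0.118 and 0.0583, and the WD+F+CCl4 mice 0.595, 0.550 and 0.204. Of cells with a UMI of Csf1r, the receptor of the growth factor CSF1 that monocytes and macrophages share, classical monocytes were 16.3% and 4.38% in the controls and 0.491% to 6.02% in NASH mice, which turned the direction (difference of -7.64 percentage points, exact permutation p = 0.107).

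In NASH mice 2 of 19 genes of the classical monocyte list passed the test, both higher, against 12 of 15 genes of the monocyte-derived macrophage list and 8 of 18 receptors for microbial and damage signals, all higher. Under the Cd3e rule set out below, a gauge of free RNA, 1 of the 12 macrophage genes and 3 of the 8 receptors stood. Both classical monocyte genes met that rule as well. UMIs summed per mouse were compared with edgeR's quasi-likelihood test over all 8 mice, with Benjamini-Hochberg adjustment over 8627 genes, and the genes of the gate were left out. With adjusted p below 0.05 as the threshold, NASH and control differed in 404 genes (4.68%), 222 higher (2.57%) and 182 lower (2.11%). The CPM of NASH and control mice did not overlap for 2027 of 8627 genes (23.5%). These p-values measure the spread between mice and rest on 2 controls. Without control 1, where control 2 is the lone control and is assumed to vary like the other groups, 2 calls were left, Gngt2 (log2 fold change 2.57 ± 0.35 SE) and Igkc (-3.72 ± 0.51 SE), although 355 of the 368 called genes that could be tested kept their direction. Without control 2, 293 genes passed, 256 of them among the 404.

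Of 19 tested genes of the classical monocyte list, 2 were higher in NASH (Hp and Clec4e, all genes 2.57%), none was lower and 17 did not pass, with a median log2 fold change of -0.12 against 0.04 over all 8627 genes. Ly6c2 stood at 1165 and 1725 CPM in the controls, 685, 1012 and 1387 CPM in the HFD+F+CCl4 mice and 1496, 989 and 1129 CPM in the WD+F+CCl4 mice, so the groups overlapped (log2 fold change -0.25 ± 0.28 SE, adjusted p = 0.711, edgeR). Fn1, the matrix protein fibronectin, stood at 2456 and 1929 CPM in the controls and at 969 to 1856 CPM in NASH mice (log2 fold change -0.79 ± 0.27 SE, adjusted p = 0.111, edgeR). Some T cells also make Ly6C. Ly6c2 shares much of its sequence with other Ly6 genes, and the sources used here do not say how reads that fit several of them were counted.

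Libraries of this kind hold free RNA, so each level is set beside the level in cells with a Cd3e UMI of the same mouse. Cd3e is a gene of T cells, which should lack myeloid transcripts. Beyond this 1 gene the identity of these cells was not checked, and a Cd3e UMI can itself be free RNA or come from a doublet. After thinning to 1000 UMIs, 2.64% and 4.47% of them held a Csf1r UMI in the controls and from 10.4% (WD+F+CCl4 mouse 1) to 15.7% (WD+F+CCl4 mouse 2) in 5 NASH mice and 16% in HFD+F+CCl4 mouse 1, so they are a gauge and not a measured level of free RNA. There were 411 to 4536 such cells a mouse. Of the 222 genes higher in NASH, 110 were above the Cd3e cells in each of the 6 NASH mice. The level above the Cd3e cells is the CPM of the members less that of the Cd3e cells. A gene met the Cd3e rule if this level did not overlap between NASH and control. Members also had to exceed the Cd3e cells in every mouse of the higher group. A gene said to fail the rule failed at least 1 of these conditions, and which is not given here. Of the 222 higher genes 78 (35.1%) met the rule, against 334 of 8627 genes tested (3.87%). Of the 182 lower genes 45 (24.7%) met it, against 407 of 8627 (4.72%). The called genes were chosen by the same CPM of the members that the rule uses. A share above that of all genes thus follows in part from this choice and does not show that the calls exceed free RNA. These are descriptions, without a test.

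Saa3, an acute-phase serum amyloid A protein (chr7:46711998-46715700, GRCm38), had no UMI in either control and stood at 349, 241 and 355 CPM in the HFD+F+CCl4 mice and 431, 233 and 241 CPM in the WD+F+CCl4 mice. All NASH mice were thus above the limit of 68.1 CPM in control 2, and the mean of 308 ± 82 CPM (SD, n = 6) was at least 99.1-fold higher than the limit of both controls together (adjusted p = 8.55e-06, edgeR). Cd3e cells of the same NASH mice held Saa3 at 13.8 to 60.0 CPM, and those of the controls at 1.51 and 4.67 CPM. Lcn2, the iron-siderophore carrier lipocalin 2, stood at 5.43 and 0 CPM in the controls, 35.5, 53.3 and 427 CPM in the HFD+F+CCl4 mice and 885, 325 and 168 CPM in the WD+F+CCl4 mice (log2 fold change 5.75 ± 1.36 SE, adjusted p = 0.0228, edgeR). HFD+F+CCl4 mice 1 and 2 lay under the 68.1 CPM that a count of 0 allows in control 2, so a separation from that mouse was not detectable at this depth. Lcn2 also marks neutrophil granules, and without control 2 its log2 fold change was 5.66, close to that with both controls, with an adjusted p of 0.0938 (edgeR). Hp, the hemoglobin scavenger haptoglobin, stood at 420 and 635 CPM in the controls and 1082 to 1705 CPM in NASH mice, with Cd3e cells at 67.8 to 355 CPM (log2 fold change 1.52 ± 0.28 SE, adjusted p = 0.00454, edgeR). The Saa3 and Lcn2 stretches shown above are those with the C/EBP letters.

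Of 18 listed receptors for microbial and damage signals, 8 were higher in NASH (all genes 2.57%) and none lower, with a median log2 fold change of 1.17 against 0.04 over all genes. Clec4e (Mincle), which reads mycobacterial lipids and dying cells, stood at 32.6 and 0 CPM in the controls, 165, 104 and 315 CPM in the HFD+F+CCl4 mice and 160, 141 and 96.1 CPM in the WD+F+CCl4 mice (log2 fold change 2.38 ± 0.52 SE, adjusted p = 0.0140, edgeR). Fpr2, a receptor for formyl peptides that also binds serum amyloid A, stood at 25 and 0 CPM in the controls and 107 to 235 CPM in NASH mice (2.75 ± 0.43 SE). Tlr2, which reads bacterial lipoproteins, stood at 56.5 and 45.4 CPM in the controls and 101 to 152 CPM in NASH mice (1.08 ± 0.27 SE). For these 3 the level above the Cd3e cells did not overlap between the groups either. Fcgr4, Cd14, C5ar1, C3ar1 and Fcgr1 also passed, with log2 fold changes of 1.56 (Fcgr1) to 3.91 (C5ar1), but they failed the Cd3e rule. C3ar1 in HFD+F+CCl4 mouse 1 was 82.7 CPM in members and 109 CPM in Cd3e cells.

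Of 19 tested transcription factors of the myeloid line, 6 were higher and 1 was lower (Irf4, at 65.2 and 0 CPM in the controls and 9.96 to 38.0 CPM in NASH mice, a direction that turned without control 1). Over all genes, 2.57% were higher and 2.11% lower. Cebpb stood at 283 and 340 CPM in the controls, 1022, 867 and 1083 CPM in the HFD+F+CCl4 mice and 842, 694 and 820 CPM in the WD+F+CCl4 mice (log2 fold change 1.56 ± 0.25 SE, adjusted p = 0.00163, edgeR). Spi1 stood at 305 and 318 CPM in the controls and 575 to 697 CPM in NASH mice (1.02 ± 0.23 SE). Nfe2l2 (NRF2), the regulator of the antioxidant response, stood at 97.8 and 45.4 CPM in the controls and 256 to 459 CPM in NASH mice (1.74 ± 0.32 SE). Tcf7l2 was higher too (2.42 ± 0.39 SE), at 14.1 and 0 CPM in the controls and 49.0 to 99.3 CPM in NASH mice, of which the lowest is under the limit of control 2. For these 4 the level above the Cd3e cells did not overlap between groups. Bhlhe40 (1.94 ± 0.50 SE) passed the test, but it failed the Cd3e rule.

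**Figure D2:**
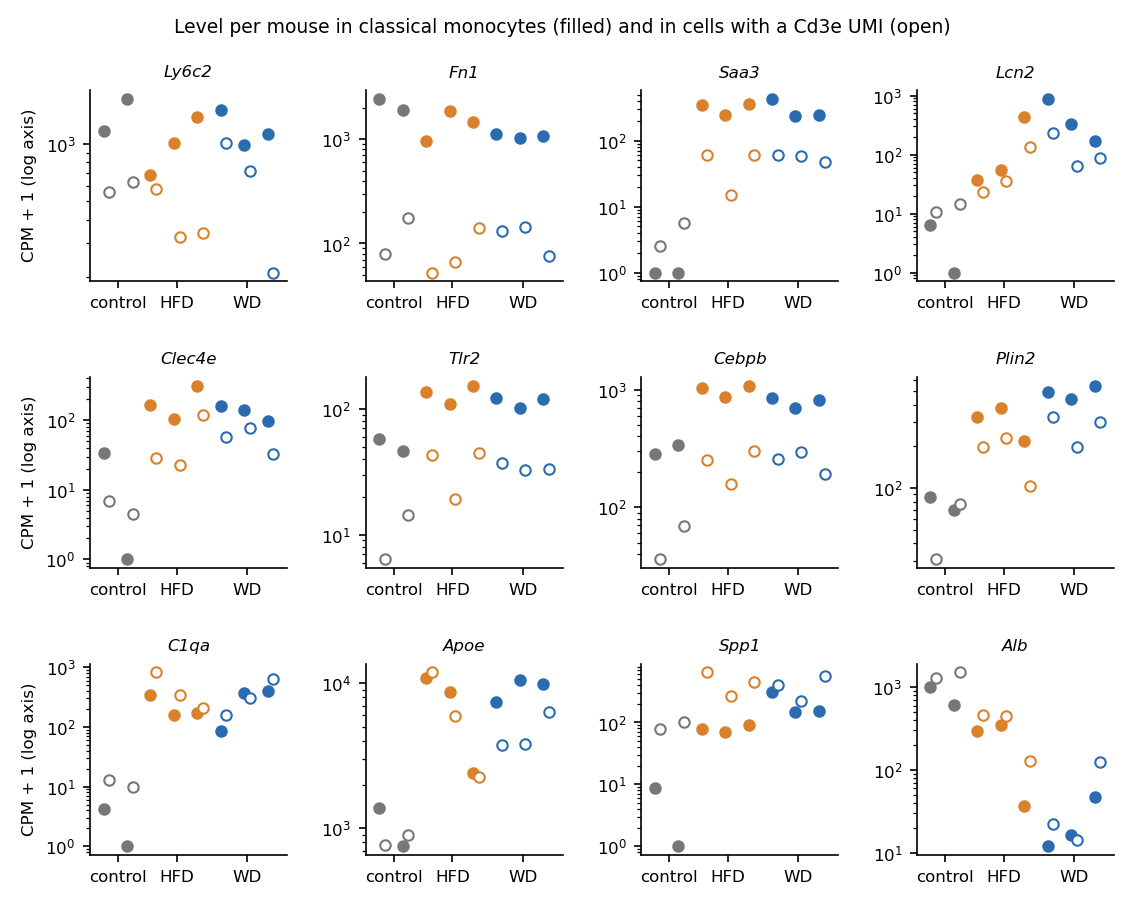
Level of 12 genes (CPM + 1, log axis) in each of the 8 mice, in the classical monocytes (filled points) and in cells with a Cd3e UMI of the same mouse (open points). Saa3, Clec4e, Tlr2 and Cebpb are higher in the NASH mice and lie above the Cd3e cells there, while C1qa, Spp1 and Alb are near or below the Cd3e cells in most mice.

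Metabolic genes were called in part, where 2.57% of all genes were higher and 2.11% lower. Of 18 tested genes of glycolysis and the response to hypoxia 5 were higher and none lower. Pgam1 stood at 115 and 113 CPM in the controls and 225 to 359 CPM in NASH mice (log2 fold change 1.22 ± 0.27 SE), and Pkm at 351 and 295 CPM in the controls and 550 to 746 CPM in NASH mice (0.95 ± 0.25 SE). Both met the Cd3e rule, and Pfkl (1.71), Ldha (1.23) and Tpi1 (1.12) did not. Of 19 genes of lipid handling 6 were higher. Plin2, which coats lipid droplets, stood at 84.8 and 68.1 CPM in the controls, 325, 378 and 217 CPM in the HFD+F+CCl4 mice and 495, 440 and 548 CPM in the WD+F+CCl4 mice (2.17 ± 0.31 SE, adjusted p = 5.18e-04, edgeR). The sterol sensor Nr1h3 (3.72 ± 0.48 SE), the cholesterol exporter Abca1 (2.08 ± 0.49 SE), Fabp5, Pparg and Apoe made up the rest, and these genes failed the Cd3e rule. Of 7 genes of the NADPH oxidase only Ncf4 passed (1.21 ± 0.25 SE), and of 16 genes of adhesion and trafficking only the chemokine receptor Ccr1 (1.24 ± 0.33 SE). A single call in a list of this size is not read as a result about the list. Of 8 genes taken from the study, which are no independent evidence, 2 passed, Spp1 and Socs3, the inhibitor of cytokine signalling (2.69 ± 0.64 SE, with 4 of the 6 NASH mice under the limit of control 2). Ncf4, Ccr1, Socs3 and Gngt2 (2.00 ± 0.26 SE) were above the Cd3e cells without overlap. Gngt2, a G protein subunit listed with patrolling monocytes, stood at 247 and 204 CPM in the controls and 875 to 1044 CPM in NASH mice.

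Macrophage transcripts were higher in NASH, and for most of them the Cd3e cells moved with the members. Of 15 genes of the monocyte-derived macrophage list 12 were higher (all genes 2.57%) and none lower, with a median log2 fold change of 2.89, or 2.53 with the 3 genes at 0 in both controls put at their bound. C1qa, a chain of complement C1q, stood at 3.26 and 0 CPM in the controls, 343, 157 and 169 CPM in the HFD+F+CCl4 mice and 84.6, 376 and 407 CPM in the WD+F+CCl4 mice (log2 fold change 6.15 ± 0.99 SE, adjusted p = 0.00156, edgeR). Cd3e cells of the same mice held C1qa at 11.8 and 8.75 CPM, 819, 340 and 208 CPM, and 159, 307 and 634 CPM, above the members in 7 of 8 mice. C1qb (7.41 ± 0.82 SE) rose with it. C1qc had no UMI in either control, and its mean in NASH mice was at least 72.9-fold higher than the limit of both controls together. Apoe, apolipoprotein E, stood at 1368 and 749 CPM in the controls and 2410 to 10932 CPM in NASH mice (2.89 ± 0.51 SE), with Cd3e cells at 2247 to 11880 CPM in NASH mice. Cd63 and Basp1 also had no UMI in the controls, and were at least 14.3-fold and 13.9-fold higher in NASH, with Cd3e cells above the members in all 6 NASH mice. These bounds use the limit of both controls together (3.11 CPM). Basp1 in all 6 NASH mice and Cd63 in 4 of them lay under the 68.1 CPM that a count of 0 allows in control 2, so a separation from that mouse was not detectable at this depth. Aif1, an actin-binding protein of macrophages, was the only one of the 12 to meet the Cd3e rule, at 142 and 45.4 CPM in the controls and 230 to 395 CPM in NASH mice (1.28 ± 0.32 SE). The share of members with a C1q UMI, after thinning to 1000 UMIs, was 1.48% of 203 members and 0 of 17 members in the controls, 66.7%, 35.1% and 15.7% in the HFD+F+CCl4 mice and 13.6%, 30.7% and 40.0% for WD+F+CCl4. Cd3e cells gave 1.41% and 2.39%, 61.5%, 34.9% and 17.4%, and 9.14%, 17.5% and 38.1%. The members were above the Cd3e cells by 13.1 percentage points in WD+F+CCl4 mouse 2 and by at most 5.19 in the other 7 mice. The mean was 33.6% ± 19.3 (SD, n = 6) in NASH mice against 0.739% in controls (exact two-sided permutation test, p = 0.107). Without thinning, the difference between these means was 62.2 percentage points (same exact test, p = 0.0357). With thinning, it was 26.3 without HFD+F+CCl4 mouse 1 and 36.9 without WD+F+CCl4 mouse 1 (same exact test, p = 0.0476 each). Leaving out any other mouse gave no p under 0.05. Csf1r, by contrast, was above the Cd3e cells in all 8 mice.

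**Figure D3:**
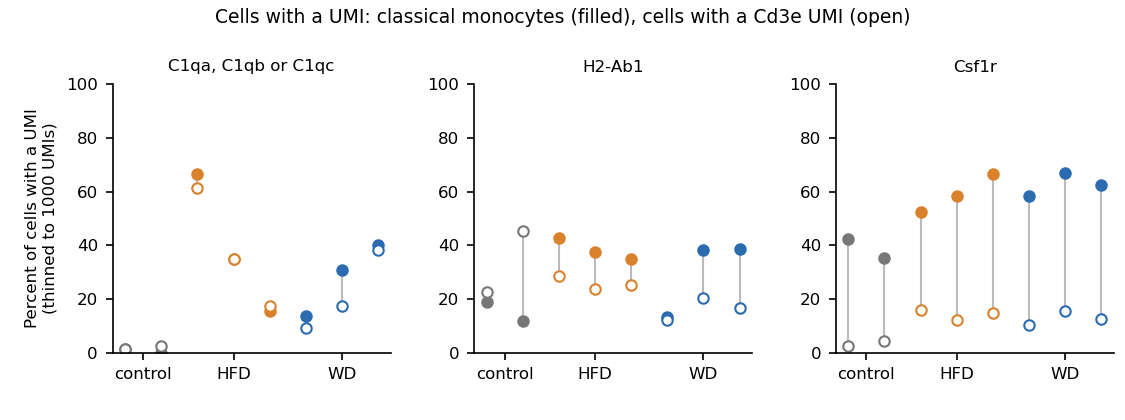
Percent of cells with a UMI of C1qa, C1qb or C1qc, of H2-Ab1 and of Csf1r after thinning to 1000 UMIs, in the classical monocytes (filled) and in cells with a Cd3e UMI (open) of each mouse, joined by a line. For C1q both kinds of cell differ by at most 5.19 percentage points in 7 of the 8 mice, and for Csf1r the classical monocytes lie above the Cd3e cells in all 8.

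Of 10 lipid-associated macrophage genes 6 were higher, among them Spp1 (osteopontin), at 7.61 and 0 CPM in the controls, 76.8, 68.5 and 90.3 CPM in the HFD+F+CCl4 mice and 309, 147 and 155 CPM in the WD+F+CCl4 mice (log2 fold change 4.04 ± 0.57 SE), with the CPM of Cd3e cells above that of the members in all 8 mice. After thinning to 1000 UMIs, the share of cells with a Spp1 UMI was lower in members than in Cd3e cells in the controls and the HFD+F+CCl4 mice, and it was 13.1%, 8.49% and 7.62% in members against 8.56%, 5.04% and 7.59% in Cd3e cells of WD+F+CCl4 mice 1 to 3. Cd9 (3.73 ± 0.74 SE) and Fabp5 (1.29 ± 0.31 SE) were also in this group. Of 15 patrolling monocyte genes 5 were higher, such as Eno3 (3.76 ± 0.63 SE), Ear2 (2.33 ± 0.38 SE) and Ace (1.71 ± 0.40 SE). Of the 5, Gngt2 alone met the Cd3e rule. H2-Ab1 was the only one of 8 genes of MHC class II presentation to pass, at 457 and 522 CPM in the controls and 507 to 1844 CPM in NASH mice (1.58 ± 0.40 SE), with the 507 CPM in WD+F+CCl4 mouse 1. H2-Ab1 failed the Cd3e rule. S100a9 was the only one of 8 neutrophil genes (4.04 ± 1.11 SE, 59.1 to 4499 CPM in NASH mice), a call lost in members without a neutrophil UMI (1.22, adjusted p = 0.537, edgeR) and without control 1 (4.97, adjusted p = 0.450, edgeR) or control 2 (3.85, adjusted p = 0.227, edgeR). The granule genes Lcn2 and Prtn3 (5.82 ± 1.01 SE) were called of 7. One gene each was higher of the chemokine ligands (Cxcl16, of 8), the cytokines (Il1rn, of 12), the Kupffer cell genes (Hmox1, of 6) and the interferon-stimulated genes (Ly6a, of 20), and 2 of 14 fibrosis-related factors (Spp1 and Mmp14). Over all genes, 2.57% were higher and 2.11% lower. None of these called genes met the Cd3e rule. None of 18 immediate early genes and none of 8 cell cycle genes passed. The immediate early genes summed to 7653 CPM in HFD+F+CCl4 mouse 1 and 4553 CPM in WD+F+CCl4 mouse 3, with Jun the most abundant, and to 1377 to 2203 CPM in the other 6 mice, and their part in the results was not tested. Of 5 dendritic cell genes Cd209a was lower (-2.62 ± 0.46 SE). S100a9, Prtn3 and Cd209a failed the Cd3e rule as well.

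The named falls in NASH were hepatocyte transcripts, behind a predicted gene on chromosome 1 that is described below (log2 fold change -9.09 ± 0.41 SE). Of 12 hepatocyte genes 10 were lower (all genes 2.11%) and none higher (all genes 2.57%). Alb (albumin) stood at 1010 and 613 CPM in the controls, 295, 350 and 36.1 CPM in the HFD+F+CCl4 mice and 11, 15.3 and 46.2 CPM in the WD+F+CCl4 mice (log2 fold change -3.65 ± 0.52 SE), and Cd3e cells held more Alb than the members in 7 of 8 mice. Serpina3k (-5.99 ± 0.40 SE), Mup3 (-5.43 ± 0.50 SE), Serpina1c (-4.68 ± 0.41 SE) and Apoa2 (-4.28 ± 0.43 SE), all secreted by hepatocytes, were the other named falls. All 3 tested genes of B and plasma cells (Igkc -2.80 ± 0.40 SE) and 3 of 4 of T and NK cells (Trbc2 -3.71 ± 0.70 SE, Nkg7 -3.04 ± 0.83 SE) were lower as well. None of the called hepatocyte and B cell genes met the Cd3e rule. The T and NK cell genes were not set against the Cd3e cells, which were chosen by a T cell gene.

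Some differences lay between all cells of the libraries. mt-Nd3, a subunit of respiratory complex I (chrM:9459-9806), stood at 2.17 and 0 CPM in control members and at 512 to 1223 CPM in NASH members, and in all kept cells at 3.10 and 4.52 CPM in the controls and 521 to 1402 CPM in NASH mice. A predicted gene at chr1:24612775-24613119, whose annotated transcript differs from mt-Nd3 at 1 of 345 positions, stood at 307 and 227 CPM in control members and at most 5.91 CPM in NASH members, so reads of this pair cannot be assigned with certainty. In all kept cells it stood at 457 and 259 CPM in the controls and at most 1.38 CPM in NASH mice. Which gene of the pair was counted thus followed the groups in every library. The cause was not tested. A difference between libraries that follows the groups in this way cannot be told apart from NASH itself. Rps7 (-1.66 ± 0.27 SE) and Rpl24 (-1.67 ± 0.22 SE), proteins of the ribosome, were lower in members of NASH mice, and Rps7 in Cd3e cells stood at 2268 and 1752 CPM in the controls and 522 to 1470 CPM in NASH mice.

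The 2 models were also set against the same 2 controls, which these comparisons share. In HFD+F+CCl4 mice 192 of 8627 genes (2.23%) differed, 120 higher (1.39%) and 72 lower (0.835%), and in WD+F+CCl4 mice 425 (4.93%), 237 higher (2.75%) and 188 lower (2.18%). Without control 1, 0 genes passed for HFD+F+CCl4 (edgeR, 935 at an unadjusted p under 0.05) and 2 for WD+F+CCl4 (Gngt2 and Igkc), so that no other gene named here kept its call. The HFD+F+CCl4 count was 113 without control 2, 125 without HFD+F+CCl4 mouse 2 and 116 without HFD+F+CCl4 mouse 3, and the WD+F+CCl4 count was 233 without WD+F+CCl4 mouse 2. With all mice, the fits put Cebpb at 1.72 ± 0.27 SE and 1.41 ± 0.27 SE (log2 fold change, HFD+F+CCl4 first), Fpr2 at 2.91 ± 0.45 SE and 2.59 ± 0.44 SE, and Plin2 at 1.79 ± 0.32 SE and 2.54 ± 0.32 SE. Hba-a1 (-6.41 ± 1.57 SE) and Hbb-bs (-6.13 ± 1.41 SE), chains of hemoglobin, were among the falls in HFD+F+CCl4. Control 2 held them at 2882 CPM and 5378 CPM, and control 1 at 43.5 CPM and 122 CPM.

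Few genes separated the 2 models. With WD+F+CCl4 set against HFD+F+CCl4, 5 of 8627 genes (0.0580%) passed, 2 higher (0.0232%) and 3 lower (0.0348%), 444 had an unadjusted p under 0.05, and DESeq2 called 2. Without the filter on low counts, 136 of 18959 genes (0.717%) passed, 46 higher and 90 lower. Without HFD+F+CCl4 mouse 3, 18 genes passed. Il1b, the cytokine interleukin 1β, stood at 118, 112 and 196 CPM in the HFD+F+CCl4 mice and 48.3, 65.7 and 42.6 CPM in the WD+F+CCl4 mice (log2 fold change -1.48 ± 0.25 SE, adjusted p = 0.0434, edgeR). Its natural antagonist Il1rn stood at 106, 73.5 and 165 CPM against 30.9, 43.0 and 42.6 CPM (-1.63 ± 0.28 SE, the same adjusted p). Il4i1, an enzyme that breaks down amino acids, stood at 76.8, 22.8 and 68.4 CPM against 1.99, 9.88 and 4.53 CPM (-3.24 ± 0.52 SE), with Cd3e cells at 49.0, 18.5 and 96.0 CPM against 24.7, 34.5 and 11.9 CPM. These 3 did not overlap between the models and were lower on the western diet. Retnlg, a gene of neutrophils, stood at 5.91, 10.1 and 2.58 CPM against 69.7, 119 and 48.9 CPM (3.90 ± 0.52 SE), and the nucleoside kinase Nme2 at 47.3, 22.8 and 38.7 CPM against 97.6, 110 and 84.3 CPM (1.5 ± 0.25 SE). With the members of 20 or more S100a8 and S100a9 UMIs left out, Retnlg was not tested, and the other 4 kept their direction without passing (Il1b -1.54, Il1rn -1.61, Il4i1 -3.19 and Nme2 1.51). None of the 5 passed with control 1 or control 2 left out or with the 6 NASH mice fitted alone, where fewer mice enter the fit, and Il4i1 alone passed without the members ranked as doublets. All 5 kept their direction in these fits.

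Against patrolling monocytes of the same mouse, the classical monocytes carried more interferon-stimulated genes and fewer genes of the vessel-bound program. Both classes were set by UMIs of these same cells, so the counts describe 2 gates and give no independent test. In 7 mice, with the mouse as a block and the genes of either gate left out, 3744 of 9461 genes (39.6%) passed in edgeR, 1909 higher in classical monocytes (20.2%) and 1835 lower (19.4%). Ly6c2 stood at 1165 CPM in classical and 61.9 CPM in patrolling monocytes of control 1, and at 685 to 1496 CPM against 17.6 to 46.1 CPM in NASH mice (log2 difference 5.26 ± 0.16 SE). Cd177 (5.33 ± 0.21 SE), a surface protein of neutrophils, Fn1 (5.20 ± 0.18 SE), Gas7 (4.24 ± 0.21 SE) and the collagenase Mmp8 (4.13 ± 0.15 SE) were higher in all 7 mice. The ion transporter Slc12a2 (-5.61 ± 0.26 SE), Tmem26 (-4.68 ± 0.26 SE), the endothelial and leukocyte adhesion molecule Pecam1 (-4.65 ± 0.30 SE), the phosphatase Dusp16 (-4.21 ± 0.14 SE), Ikzf3 (-4.11 ± 0.30 SE) and Dnah12 (-4.03 ± 0.32 SE) were lower in all 7.

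All 20 interferon-stimulated genes were higher in classical than in patrolling monocytes, with a median log2 difference of 1.69 against -0.01 over all 9461 genes. Isg15, a ubiquitin-like protein induced by interferon, stood at 35.9 to 94.6 CPM in classical and 0 to 22.5 CPM in patrolling monocytes (1.86 ± 0.17 SE). Oasl2 (2.10 ± 0.15 SE) and Ifi47 (2.12 ± 0.12 SE) were higher in all 7 mice, and Ifit2 (2.11 ± 0.27 SE) in 6 of 7. All 15 patrolling monocyte genes were lower, such as Eno3 (-3.53 ± 0.17 SE), Ear2 (-3.20 ± 0.13 SE), Cd36 (-2.84 ± 0.29 SE) and the peptidase Ace (-2.16 ± 0.19 SE). Of 19 transcription factors 5 were higher (all genes 20.2%), a share near that of all genes, among them Cebpa (1.22 ± 0.11 SE) and Cebpd (0.96 ± 0.10 SE), and 10 were lower (all genes 19.4%), among them Pparg (-2.23 ± 0.18 SE), Bhlhe40 (-2.03 ± 0.16 SE), Tcf7l2 (-1.89 ± 0.16 SE) and Nr4a1 (-1.70 ± 0.12 SE). Nr4a1 stood at 118 CPM in classical and 275 CPM in patrolling monocytes of control 1.

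Ccl2, the ligand of CCR2, stood at 14.1 to 71.2 CPM in classical and 0 to 14.4 CPM in patrolling monocytes (2.46 ± 0.37 SE), and Ccr1 was higher too (2.12 ± 0.17 SE). Of 13 cytokine and inflammasome genes 3 were higher and 7 lower, where 20.2% and 19.4% of all genes were, so the share of higher genes was near that of all genes. The anti-inflammatory cytokine Il10 had UMIs in the classical monocytes of HFD+F+CCl4 mouse 1 alone (5.91 CPM) and stood at 13.1 to 42.1 CPM in the patrolling monocytes of the 6 NASH mice, and Il1b was lower in 6 of 7 mice (-1.25 ± 0.19 SE). Fcgr1 (2.39 ± 0.14 SE), Fcgr3 (2.40 ± 0.15 SE) and C3ar1 (2.35 ± 0.24 SE) were higher and Fcgr4 (-1.45 ± 0.18 SE) and Clec4e (-1.27 ± 0.17 SE) lower. Of 18 glycolysis genes 12 were higher, such as the hexokinase Hk2 (1.19 ± 0.11 SE), and 1 was lower. Of 15 fibrosis-related factors 7 were higher, such as Thbs1 (2.01 ± 0.30 SE) and Tgfbi (1.27 ± 0.09 SE), and the growth factor Pdgfb was lower (-2.92 ± 0.23 SE), at 4.98 to 45.2 CPM in classical and 68.8 to 274 CPM in patrolling monocytes.

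Against the Trem2 Gpnmb macrophages of the 6 NASH mice, the classical monocytes were lower in 13 of 19 genes of lipid handling and higher in 16 of 19 genes of the classical monocyte list. These gates, too, were set by UMIs of the same cells. Of 9592 genes 3588 (37.4%) passed in edgeR, 1820 higher (19.0%) and 1768 lower (18.4%). Ifitm6 stood at 307 to 742 CPM in classical monocytes and 10.5 to 68.8 CPM in macrophages (log2 difference 4.37 ± 0.20 SE), Ly6c2 was 4.02 ± 0.30 SE apart and Plac8 3.91 ± 0.26 SE. Cd177 (4.78 ± 0.34 SE), Tppp3 (4.48 ± 0.24 SE) and Pi16 (4.23 ± 0.18 SE) were higher in all 6 mice as well. Saa3, the leading rise in NASH, stood at 233 to 431 CPM in classical monocytes and 3.72 to 70.5 CPM in macrophages (3.89 ± 0.31 SE). Hp was also higher (3.63 ± 0.21 SE), as were the transcription factors Nr4a1 (2.90 ± 0.24 SE), Klf4 (2.64 ± 0.21 SE) and Cebpd (1.78 ± 0.11 SE). Of 7 NADPH oxidase genes 6 were higher, such as Ncf4 (1.13 ± 0.10 SE).

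All 15 monocyte-derived and all 14 lipid-associated macrophage genes were lower in classical monocytes, and 13 of 19 genes of lipid handling. C1qa stood at 84.6 to 407 CPM in classical monocytes and 1410 to 3289 CPM in macrophages (-3.45 ± 0.17 SE), and Spp1 at 68.5 to 309 CPM against 693 to 1948 CPM (-3.16 ± 0.17 SE). Lipid uptake and transport genes followed, with Fabp5 at -3.43 ± 0.12 SE, the scavenger receptor Cd36 at -3.03 ± 0.14 SE, lipoprotein lipase Lpl at -2.24 ± 0.11 SE and Apoe at -2.02 ± 0.22 SE. The named falls were Syngr1 (-6.23 ± 0.29 SE), the interleukin 7 receptor Il7r (-5.94 ± 0.24 SE), the elastase Mmp12 (-5.37 ± 0.24 SE), Lhfpl2 (-4.79 ± 0.32 SE), Cadm1 (-4.42 ± 0.20 SE) and the folate receptor Folr2 (-4.38 ± 0.32 SE). Chemokines were lower in 9 of 12 (all genes 18.4%), among them Ccl8 (-4.48 ± 0.34 SE) and Ccl2, at 17.7 to 71.2 CPM in classical monocytes and 19.0 to 250 CPM in macrophages (-1.49 ± 0.21 SE). The growth factors Igf1 (-3.56 ± 0.16 SE), Gdf15 (-4.62 ± 0.31 SE) and Pdgfa (-3.06 ± 0.34 SE) were lower, while Fn1 was higher (2.56 ± 0.21 SE). S100a8 (3.56 ± 0.50 SE) and S100a9 (3.4 ± 0.47 SE) were at -0.245 and -1.71 with the 122 S100-high members left out, which is no test, since these members were chosen by the UMIs of both genes.

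**Figure D4:**
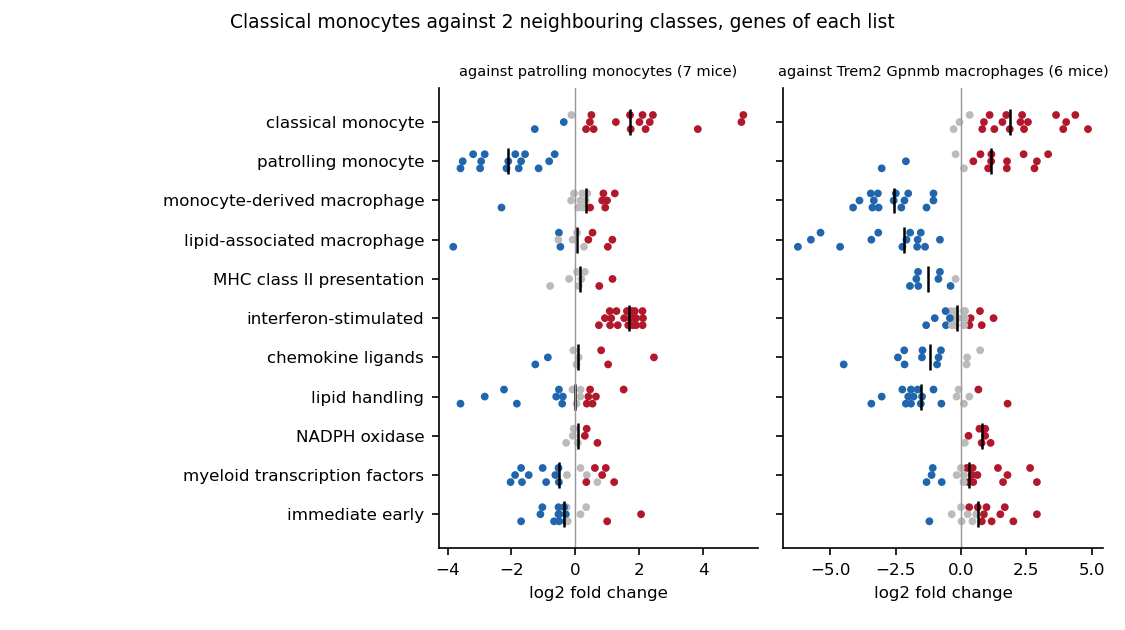
Log2 difference of the genes of each list (1 point a gene) between classical monocytes and patrolling monocytes (7 mice, left) and Trem2 Gpnmb macrophages (6 mice, right), with red for higher, blue for lower and grey for genes that did not pass, and a bar at the median. Interferon-stimulated genes lie above 0 against patrolling monocytes in all 20 cases and are split 5 to 5 against macrophages.

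Members were also compared among themselves. The share of members with a C1q UMI was within 5.19 percentage points of that of Cd3e cells in 7 of 8 mice. Members with at least 2 C1q UMIs were set against members with none in the 4 mice with 20 or more cells of each kind, and 349 of 6007 genes (5.81%) passed in edgeR, 193 higher (3.21%) and 156 lower (2.60%). The count was 124 with DESeq2, 160 without WD+F+CCl4 mouse 2, and 24 without the mouse as a block (21 higher and 3 lower). All 7 tested genes of MHC class II presentation were higher, with H2-Ab1 at 1553 to 3080 CPM against 322 to 920 CPM (log2 difference 2.05 ± 0.14 SE) and H2-Eb1 2.30 ± 0.14 SE apart. The complement receptor C3ar1 (2.32 ± 0.18 SE), the receptors of dying cells Axl (2.17 ± 0.17 SE) and Mertk (2.02 ± 0.29 SE) and Spp1 (2.05 ± 0.14 SE) were higher in all 4 mice. Of 17 genes of the class 11 were lower, such as Ly6c2 (-0.69 ± 0.11 SE), which stood at 637 to 1105 CPM against 1269 to 1696 CPM. Wfdc21 (-1.93 ± 0.21 SE), Arhgef37 (-1.65 ± 0.28 SE), Nhsl2, Pglyrp1, Lrg1 and Ccdc88c were the other named falls, between -1.5 and -1.52 for the last 4.

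MHC class II gave a similar contrast, with 311 of 2183 genes (14.2%) passing in 6 mice between members with 10 or more and with at most 2 UMIs of H2-Aa, H2-Ab1, H2-Eb1 and Cd74, after thinning to 2000 UMIs. Of these, 150 were higher (6.87%) and 161 lower (7.38%). The count was 196 with DESeq2, 143 without the mouse as a block and 187 without WD+F+CCl4 mouse 3. C1qa was 3.93 ± 0.24 SE higher, at 18.5 CPM against 0 in control 1 and 310 to 1123 CPM against 23.1 to 97.1 CPM in 5 NASH mice. H2-DMb1, which helps load peptides (3.20 ± 0.19 SE), Aif1 (2.02 ± 0.16 SE), Tmem176a (2.12 ± 0.18 SE), Ly6a (2.44 ± 0.29 SE) and Apoe (1.69 ± 0.17 SE) were higher. Of 17 genes of the class 13 were lower and Csf1r was higher. Fn1 stood at 159 to 952 CPM in the MHC class II group and 1235 to 2993 CPM in the other (-2.14 ± 0.20 SE), and Ly6c2 at 214 to 889 CPM against 1176 to 1800 CPM (-1.21 ± 0.16 SE), with no overlap in either. Mmp8 (-4.14 ± 0.38 SE), the protease inhibitor Slpi (-3.50 ± 0.32 SE), Pi16 (-3.37 ± 0.43 SE) and Hopx (-2.50 ± 0.30 SE) were among the named falls. Both splits use UMIs of the cells compared and give no independent test. Without the members ranked as doublets, 316 genes passed for C1q in the same 4 mice. For MHC class II HFD+F+CCl4 mouse 2 then had fewer than 20 cells of one kind and left the fit, so the 304 of 2690 genes that passed in 5 mice do not show the part of the doublets alone.

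**Figure D5:**
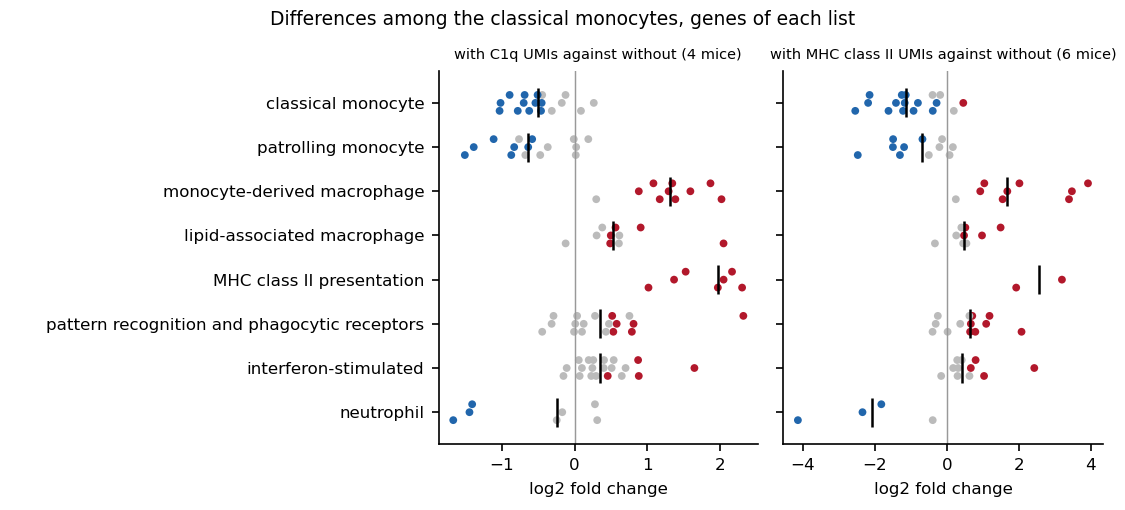
Log2 difference of the genes of each list (1 point a gene) between classical monocytes with and without C1q UMIs (4 mice, left) and with and without MHC class II UMIs (6 mice, right), with red for higher, blue for lower, grey for genes that did not pass and a bar at the median. The medians of the macrophage lists lie above 0 and those of the classical and patrolling monocyte lists below 0 in both.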

How the data were processed

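Livers of 8 mice, 1 library each, were captured with the 10x Chromium 3' kit (V3). Per the labels and the methods of the study, reads were demultiplexed with bcl2fastq 2.20 and counted against GRCm38 (mm10) with Cell Ranger, and the authors deposited 1 matrix of UMI counts of 55450 genes by 88581 barcodes, with the mouse given by the barcode suffix. From these counts, kept cells had over 500 genes and less than 25% of UMIs from mitochondrial genes, and members were taken by the stated gate. Doublets were ranked with Scrublet (scanpy 1.11.5), since its own limit called at most 0.0268% in 6 libraries, and were left in. UMIs of members were summed per mouse and tested with edgeR 4.0.16 (TMM, quasi-likelihood, Benjamini-Hochberg), tested on simulated data. In the simulated NASH comparison, 11.9%, 73.1% and 78.8% of genes changed by 2, 4 and 8-fold were recovered among 8193 genes. These were 67, 67 and 66 changed genes, and 8 calls (6.84% of calls) were false. The simulation gave all genes the same spread and all mice the same profile before these changes, so it does not measure the power in these data. Shares were compared by exact permutation over mice. Promoters came from RefSeq. DESeq2 1.42.0, other filters, thinning, a replicate block and leaving out each mouse were the alternatives. Named genes were members of the lists, and the 6 largest rises and 6 largest falls of a comparison with adjusted p under 0.05, a mean log2 CPM of at least 5 and no overlap between groups (in comparisons within mice, one direction in every mouse). Predicted genes were counted but not named. Further genes, such as Rps7 and Rpl24, were added after their values were seen. The members and lists were chosen with earlier results of these data known. Total UMIs per library ranged from 6135827 to 64855024. Some of the genes that these rules name are not reported here.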

Additional observations from a re-analysis of the deposited data

Results flagged for a closer look

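Of 76 values tested for a mouse far from the other NASH mice of the 6, 12 stood out (15.8%), and the share that chance alone would give was not measured. HFD+F+CCl4 mouse 3 was highest for Clec4e (315 CPM), Ldha (542 CPM), Nfe2l2 (459 CPM) and Pgam1 (359 CPM). HFD+F+CCl4 mouse 2 was highest for Irf4 (38.0 CPM) and Nkg7 (17.8 CPM), and HFD+F+CCl4 mouse 1 was highest for Serpina1c (53.2 CPM) and lowest for Rps7 (266 CPM). WD+F+CCl4 mouse 1 was highest for Spp1 (309 CPM) and lowest for H2-Ab1 (507 CPM). WD+F+CCl4 mouse 3 was highest for Hba-a1 (874 CPM) and Hbb-bs (2849 CPM). The models differed by the test of their difference, on the log2 scale, for Il4i1 (-3.24), Il1rn (-1.63), Il1b (-1.48), Nme2 (1.5) and Retnlg (3.90), each WD+F+CCl4 against HFD+F+CCl4.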

How the results depend on the processing

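The share of classical monocytes in NASH against control turned with cells with a Csf1r UMI as the whole (-7.64 percentage points) and ran from -0.00275 (without WD+F+CCl4 mouse 2) to 0.960 with 1 mouse left out, and that of WD+F+CCl4 against HFD+F+CCl4 ran from 1.51 to 2.79. After thinning to 1000 and 2000 UMIs these differences were 2.14 and 2.39 (NASH) and 4.67 and 6.29 (WD+F+CCl4). The difference in the share with C1q was 62.2 percentage points without thinning and 26.3 to 36.9 with 1 mouse left out. Thinning and the limit of more than 1000 genes left 3 members in control 2, and leaving out members with a C1q UMI left 3 in HFD+F+CCl4 mouse 1, so that mouse left those fits (minimum of 10 members) and the cell choice and the loss of the mouse cannot be told apart. Without control 2 alone the counts were 293 (NASH), 113 (HFD+F+CCl4), 345 (WD+F+CCl4) and 0 (between the models). The count of 404 genes became 253 with DESeq2, 713 without the filter on low counts, 242 after thinning (7 mice), 240 in members without a neutrophil UMI, and 2 to 505 with 1 mouse left out. The 192 genes of HFD+F+CCl4 became 464 without the filter, 103 after thinning and 113 in cells with more than 1000 genes (7 mice each), and 0 to 205 with 1 mouse left out. The 425 of WD+F+CCl4 became 241 with DESeq2, 719 without the filter, 277 after thinning (7 mice), 270 without a neutrophil UMI, and 2 to 570 with 1 mouse left out. For WD+F+CCl4 against HFD+F+CCl4, DESeq2 called 2 genes, no filter 136, a gate of at least 5 UMIs 3, doublets removed 1, members without a neutrophil UMI 1, 0 each with the groups compared alone (6 mice) and no S100-high members (8 mice), and 0 each with thinning, more than 1000 genes and no C1q UMI (7 mice each), with 0 to 18 when 1 mouse was left out. Against macrophages thinning gave 2024 genes, and leaving out a mouse 2953 to 3581, and 2931 to 4195 against patrolling monocytes. Among members, C1q gave 124 genes with DESeq2, 24 without the mouse as a block and 160 to 389 with 1 mouse left out, and MHC class II 196, 143 and 187 to 320. Irf4 turned to 6.88 without control 1 (range -2.31 to 6.88 with 1 mouse left out), and S100a8 and S100a9 against macrophages to -0.245 and -1.71 without S100-high members, which were chosen by these genes. The causes were not tested.

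Mice with the same number share only that number, since their deviations correlated between -0.139 and 0.0847. With a replicate block, 197 genes passed in NASH, 96 in HFD+F+CCl4, 241 in WD+F+CCl4 and 6 between the models, of which 1 (Retnlg) was among the 5 reported, the other 4 keeping their direction. The 44068 UMIs of control 2 limit each comparison with the controls.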
